A study of Mus musculus with 18 samples.

Results

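The lysosome is the acid compartment in which macrophages take apart what they engulf, and 43 genes of that compartment and of its proton pump, the vacuolar H+-ATPase (V-ATPase), were followed in macrophages given oxidised low-density lipoprotein (oxLDL). They were taken by symbol, as lysosomal hydrolases and their cofactors, membrane proteins, sterol exporters, V-ATPase subunits and the transcription factors TFEB, TFE3 and MITF. All 43 were found among the 18668 genes of the deposited table, and all 43 passed the filter on low values that left 12838 genes for testing. The cells were mouse bone marrow-derived macrophages (BMDM), grown from marrow for 7 days with M-CSF, a growth factor for macrophages. They came from Apoe-/- mice on a C57BL6 background and from mice that lack Treml4 as well, Apoe-/-/Treml4-/- (DKO), so that every culture lacked Apoe, a lipoprotein component that macrophages also secrete, and the genotypes differed by Treml4, a receptor-like protein of myeloid cells. Both deletions were carried in all cells of the animal and not in macrophages alone. Cells of each genotype received vehicle (untreated) or oxLDL at 10 or 60 µg/ml (oxLDL 10 and oxLDL 60) for 16 h according to the design text, with 3 replicates in each of the 6 groups. The age of the animals was not given in the sources used here, the labels also mention LPS without saying for which samples, and a longer time of exposure stands in the study's methods.

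OxLDL that a macrophage takes up is delivered to lysosomes, where acid lipase cleaves its cholesteryl esters and the sterol exporters NPC2 and NPC1 pass the freed cholesterol out to the rest of the cell. The hydrolases work only at the low pH that the V-ATPase keeps up by hydrolysing ATP in its cytosolic V1 sector and driving protons through its membrane-bound V0 sector. TFEB, TFE3 and MITF are related transcription factors known to bind E-box letters in the promoters of many lysosomal genes, and their activity is set largely by where in the cell they are held, which RNA levels do not show.

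The promoter letters of the members were read first, because the E-box is what these genes are best known to share. Promoter windows of 300 bases, 250 before and 50 after the transcription start, were matched by symbol to RefSeq on GRCm38.p6 for 35 of the 43 members, and Ctsb, Asah1, Npc1, Atp6v0d2, Atp6v1b2, Atp6v1c1, Atp6v1g1 and Atp6v1h had no entry. The letters TCACGTG, which include the shorter E-box CACGTG, stood on either strand in 11 of the 35, or 31.4%, against 4.29% of 27025 genes with a window and 7% of the 10153 tested genes with one. CACGTG alone stood in 12 of the 35, or 34.3%, against 8.09% of all genes with a window and 11.9% of the tested ones, and Ctsl was the gene that had it without the longer letters. The related M-box letters TCATGTG stood in 7, or 20%, against 4.31% of all and 2.79% of the tested genes. The stretches shown are those of Lamp1, which had the most CACGTG sites, and of Gla, which had the largest called increase with oxLDL. Those of Atp6v1a, the catalytic subunit of the pump, and of Ctsd, the most abundant hydrolase, are also shown. So are those of Mcoln1, the lysosomal calcium channel, and of the V0 subunit Atp6v0d1. Each is written 5′ to 3′ in the direction of transcription, and capitals mark TCACGTG on either strand, including the 8-letter palindromes that hold it on both.
Lamp1, chr8:13159061-13159160, plus strand: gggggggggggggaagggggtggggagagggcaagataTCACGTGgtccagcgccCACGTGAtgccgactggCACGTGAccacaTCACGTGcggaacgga
Gla, chrX:134601156-134601255, minus strand: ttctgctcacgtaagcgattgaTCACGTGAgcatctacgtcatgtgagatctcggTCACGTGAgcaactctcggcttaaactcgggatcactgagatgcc
Atp6v1a, chr16:44139330-44139429, minus strand: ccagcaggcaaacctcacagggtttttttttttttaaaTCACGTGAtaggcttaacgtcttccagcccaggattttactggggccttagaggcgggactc
Ctsd, chr7:142387908-142387937, minus strand: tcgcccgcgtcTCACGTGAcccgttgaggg
Mcoln1, chr8:3500436-3500464, plus strand: ggtcgcgcttgTCACGTGttcagttcagg
Mcoln1, chr8:3500462-3500491, plus strand: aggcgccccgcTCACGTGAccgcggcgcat
Atp6v0d1, chr8:105566050-105566079, minus strand: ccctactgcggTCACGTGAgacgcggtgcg

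Lamp1 held CACGTG at positions -61, -45, -28 and -15 from its start, the most of any member, and Gla held it at -227 and -194 with a TCATGTG match between them at -211. In Atp6v1a the letters stood at -131, in Ctsd at -245 and -98, in Mcoln1 at -71 and -45, and in Atp6v0d1 at -3. Within the 100 bases before the start, 6 of the 35 members held CACGTG, against 3.7% of all genes with a window. The share of the tested genes, which held CACGTG more often than all genes over the whole window, is not given here. A match is a description of letters and not a measured binding site, and windows with none of these letters were those of Lipa, Neu1, Psap and Atp6v0a1 among others.

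**Figure D1:**
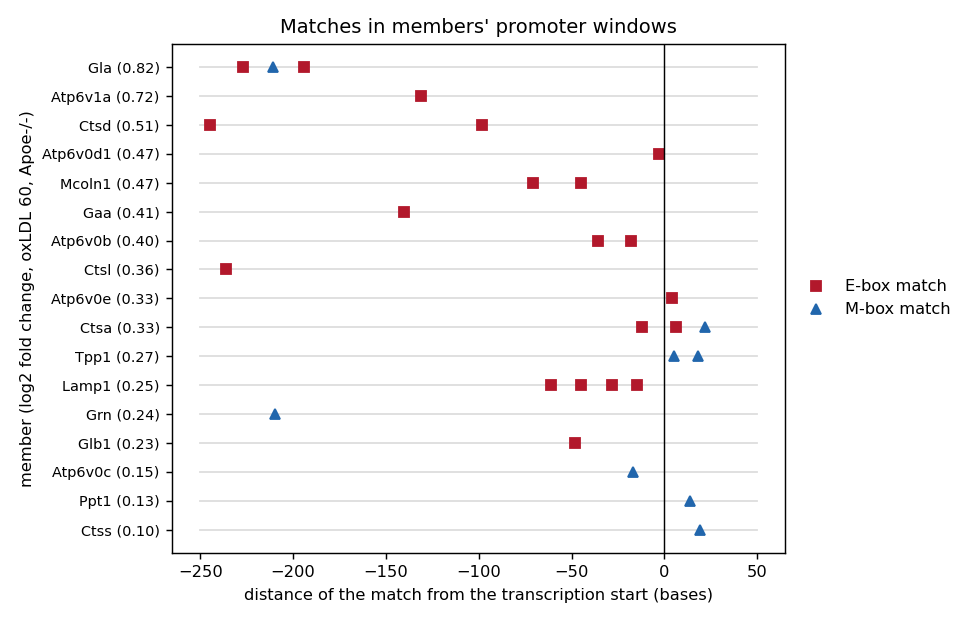
Position of E-box matches (CACGTG, squares) and M-box matches (TCATGTG, triangles) in the promoter windows of the members that held any, as distance in bases from the transcription start (vertical line); members are ordered by their log2 fold change with oxLDL 60 in Apoe-/- cells, printed in parentheses. Gla, at the top, had 2 E-box matches, while Lamp1, with 4, stood among the members that changed less.

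Before the comparisons, the libraries were checked. Treml4 lay between 1.86 and 8.39 RPKM (reads per kilobase of transcript and per M mapped reads) in the 9 Apoe-/- libraries, and in the DKO libraries it was listed at 0 in 8 and at 0.0116 RPKM in 1. Apoe, deleted in both genotypes, was still listed at 0.94 to 4.13 RPKM in Apoe-/- and at 0.35 to 1.39 RPKM in DKO libraries. The source of these Apoe reads was not tested. Depth recovered from the steps of low values ran from 39.6 to 54 M reads. All 8 macrophage markers examined were present, with a summed level of 8383 to 11760 RPKM in untreated cells, 7340 to 11960 with oxLDL 10 and 5560 to 8483 with oxLDL 60. Markers of dendritic cells summed to at most 0.369 RPKM, those of lymphocytes to at most 0.114 and those of mast cells to at most 0.277, while neutrophil markers summed to 26.1 to 72.8 RPKM and markers of stroma and fibroblasts to between 0.55 and 14.2 RPKM, from 0.738 to 13.5 within untreated Apoe-/- cells alone. Some libraries stood apart. Untreated Apoe-/- replicate 1 was the lowest of its group for all 43 members and for 68.6% of all genes tested, and DKO replicate 3 was the lowest for 29, 39 and 33 members without oxLDL, with oxLDL 10 and with oxLDL 60, against 50.8%, 56.2% and 55.6% of all genes. Apoe-/- replicate 3 with oxLDL 10 was the lowest for 32 members, against 35.5% of all genes. Apoe-/- replicate 2 and DKO replicate 3 held Xist transcripts at every treatment and the other 12 libraries did not, and calls that change without these libraries are given beside the genes they touch.

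The members differ widely in level. Averaged over the 18 libraries, Ctsd, an aspartic protease, stood highest at 2610 RPKM, followed by Psap, the precursor of the saposins that help hydrolases reach sphingolipids, at 1542 RPKM and by the cysteine protease Ctsb at 1055 RPKM. At the other end were Atp6v0d2, an alternative V0 subunit best known from osteoclasts, at 6.87 RPKM and the transcription factor Tfeb at 9.75 RPKM. Even these lay above the median of the genes tested, at percentiles 51.4 and 60.4, so the members as a set are genes of middle to very high level. Together they took 2.99% ± 0.20 of all RPKM in untreated Apoe-/- cells (SD, n = 3), 3.11% ± 0.15 with oxLDL 10 and 3.57% ± 0.14 with oxLDL 60. For DKO the shares were 2.9% ± 0.26, 3.16% ± 0.31 and 3.45% ± 0.20. The summed level with oxLDL 60 was 1.29 times that of untreated cells in Apoe-/- and 1.18 times in DKO, and without Ctsd, Psap and Ctsb these ratios were 1.22 and 1.12. These ratios use RPKM as deposited, whose total over all genes also differed. In Apoe-/- that total was 345768 to 381772 untreated and 391602 to 402586 with oxLDL 60. In DKO it was 375374 to 386769 and 376009 to 379034. With libraries scaled by their median ratio, the members' sum averaged 11445 and 14213 in Apoe-/- and 10750 and 13228 in DKO.

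Whether oxLDL raises lysosomal transcripts was asked with oxLDL 60 against untreated cells within each genotype. In Apoe-/- cells 10 of the 43 members were higher and 1 was lower, where a call asked for a limma adjusted p under 0.05 over all genes tested together with a 1.4-fold change or more. The same rule called 7.13% of all genes tested higher and 6.78% lower. In DKO cells 6 members were higher and 1 was lower, against 4.87% and 7.31% of all genes. All 7 members called in DKO cells were also called in Apoe-/- cells, and both genotypes together called 4.44% of all genes higher and 5.70% lower. Without the limit on the fold change, 23 members were higher and 2 lower in Apoe-/- cells (18.5% and 11.7% of all genes), and 16 were higher and 2 lower in DKO cells (9.06% and 16.8% of all genes). Every oxLDL 60 library lay above every untreated one for 30 members in Apoe-/- cells (25.8% of all genes) and 20 in DKO cells (14.3%), and below for 2 (14.9%) and 4 (28.3%). The median log2 fold change of the members was 0.33 in Apoe-/- against 0.06 over all genes tested, and 0.16 in DKO against -0.06 over all genes. Scaling the libraries to each other by their median ratio brought the median of all genes to 0.00 in both, and the medians of the members to 0.27 and 0.23. The changes were small, and the largest called increase, that of Gla, was 0.82 on the log2 scale.

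**Figure D2:**
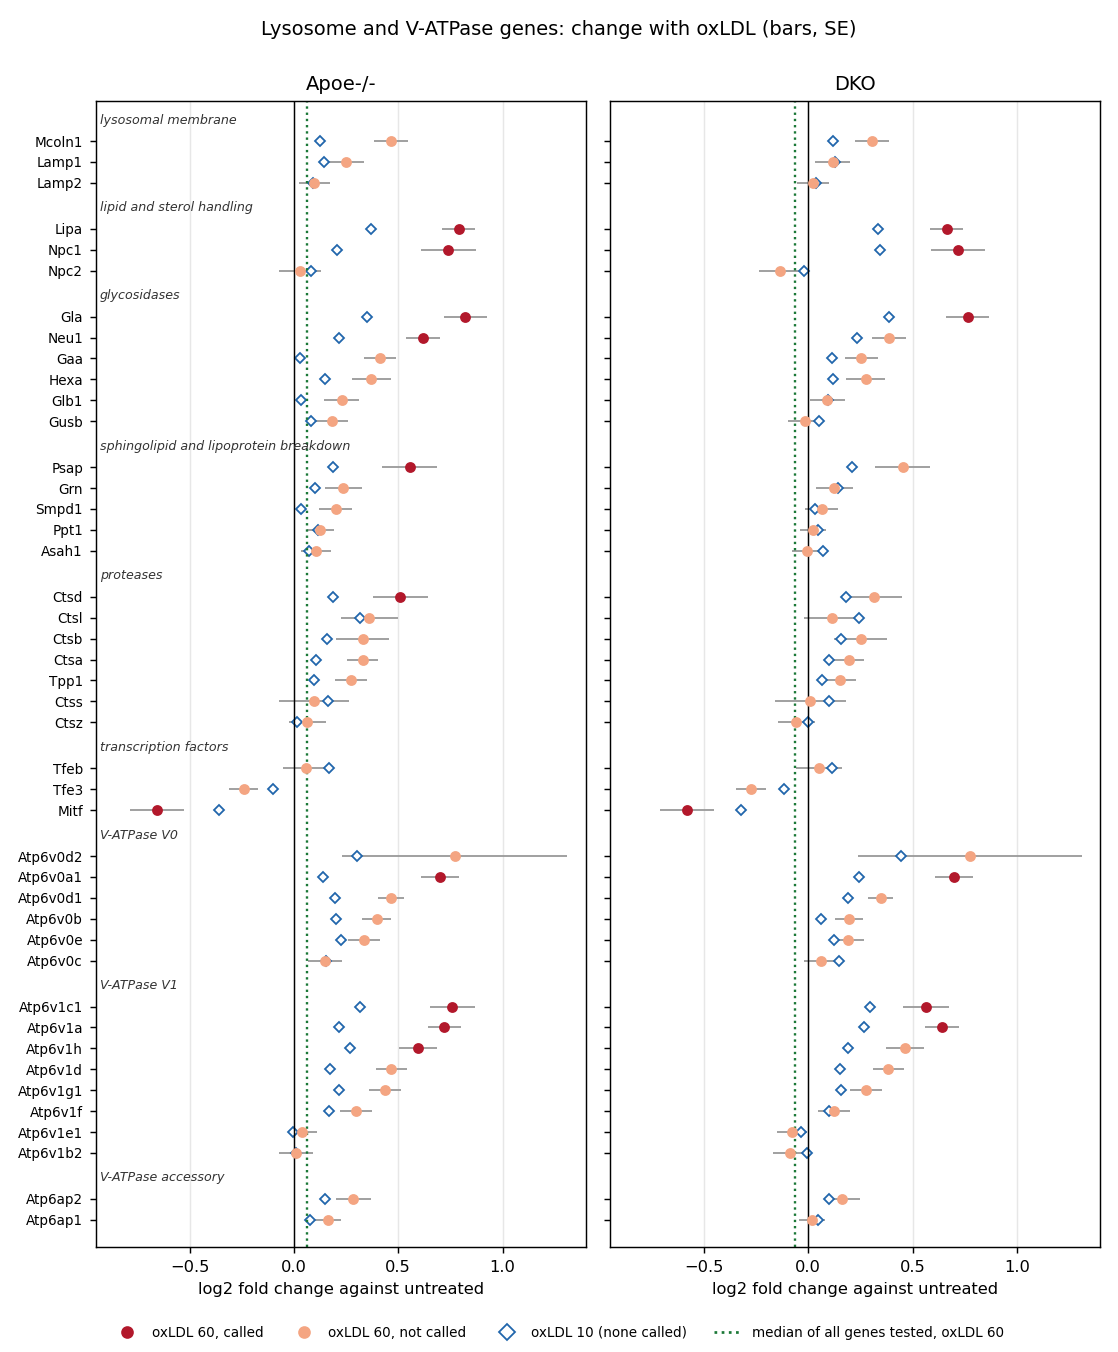
Log2 fold change against untreated cells for all 43 members, by role, in Apoe-/- (left) and DKO cells (right); circles show oxLDL 60 with their SE as bars (dark when called), open diamonds oxLDL 10, and the dotted line the median of all 12838 genes tested at oxLDL 60. Called increases lie among the lipid, glycosidase and V-ATPase genes in both panels, with Psap and Ctsd added in Apoe-/-, Mitf is the called decrease in both panels, and no member was called at oxLDL 10.

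Of the 3 genes of lipid and sterol handling, 2 were called higher with oxLDL 60 in both genotypes, against 4.44% of all genes. Lipa, which encodes the lysosomal acid lipase, stood at 350.1, 377 and 383 RPKM in untreated Apoe-/- replicates 1 to 3, at 497, 477 and 459 with oxLDL 10 and at 649.6, 638 and 631 with oxLDL 60. DKO values were 407, 403 and 364, then 505, 542 and 437, then 633, 656 and 569 RPKM in the same order. In both genotypes every oxLDL 60 library lay above every untreated one, and the oxLDL 10 libraries lay between them. The log2 fold change at oxLDL 60 was 0.79 (SE 0.08 and adjusted p = 8.95e-07 in limma) in Apoe-/- and 0.66 (SE 0.08 and adjusted p = 7.53e-06 in limma) in DKO. At oxLDL 10 Lipa was 0.37 higher in Apoe-/- (SE 0.07, adjusted p = 0.0097 in limma) and 0.34 higher in DKO (SE 0.07, adjusted p = 0.0218 in limma), under the limit on the fold change.

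Npc1, the membrane protein that exports cholesterol from lysosomes, stood at 37.2, 37.7 and 39.4 RPKM in untreated Apoe-/- cells, at 49.1, 37.8 and 45.8 with oxLDL 10 and at 64.8, 58.6 and 68.1 with oxLDL 60. In DKO cells the values were 42.7, 43.8 and 34.4, then 56.0, 57.5 and 41.0, then 70.9, 70.9 and 57.1 RPKM. The oxLDL 60 libraries again lay above all untreated ones, with a log2 fold change of 0.74 (SE 0.13 and adjusted p = 0.000345 in limma) in Apoe-/- and 0.72 (SE 0.13 and adjusted p = 0.000523 in limma) in DKO. Between oxLDL 10 and oxLDL 60 in Apoe-/- cells Npc1 rose by 0.53 (SE 0.13 and adjusted p = 0.0107 in limma), and this call went without oxLDL 10 replicate 2 or without oxLDL 60 replicate 3. Npc2, the soluble partner that hands cholesterol to NPC1, was called in neither genotype. It stood at 178, 228 and 229 RPKM in untreated Apoe-/- cells, 212, 259 and 202 with oxLDL 10 and 206, 239 and 200.3 with oxLDL 60. The DKO values were 211, 219 and 214, then 210.3, 218 and 207, then 193, 198 and 195 RPKM, with a log2 fold change at oxLDL 60 of -0.14 (SE 0.10 and adjusted p = 0.354 in limma). In Apoe-/- the change of Npc2 was 0.03 (SE 0.10 and adjusted p = 0.862 in limma), and its sign turned when libraries were rescaled.

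**Figure D3:**
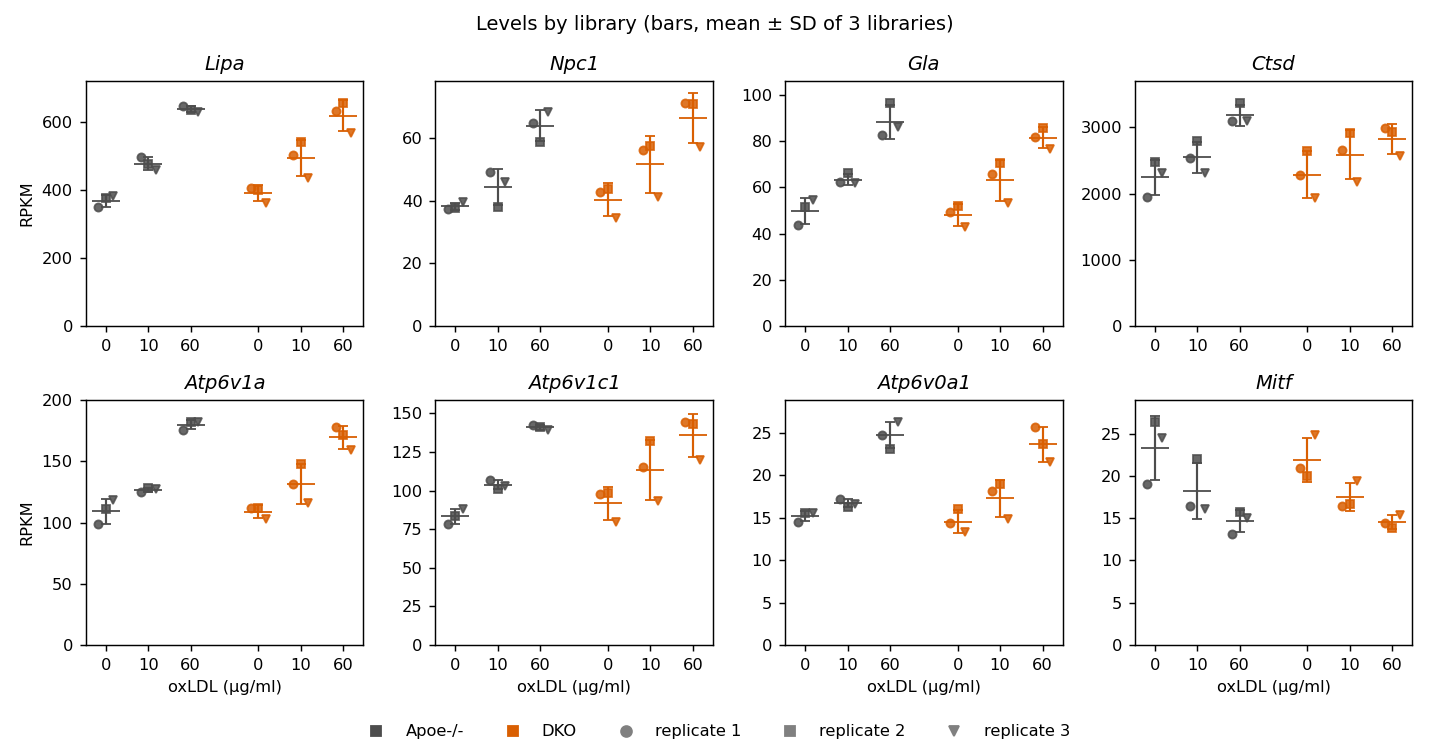
RPKM of 8 members in each of the 18 libraries, by genotype (grey, Apoe-/-; orange, DKO) and amount of oxLDL (0 is untreated); markers show replicates and bars the mean ± SD of 3 libraries. For Lipa, Npc1, Gla, Atp6v1a, Atp6v1c1 and Atp6v0a1 every oxLDL 60 library lay above every untreated library of its genotype, for Mitf every one lay below, and Ctsd overlapped in DKO.

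Among the 6 glycosidases, which clip sugars from glycolipids and glycoproteins, 2 were called higher in Apoe-/- cells and 1 in DKO cells. The shares of all genes called higher were 7.13% and 4.87%. Gla, alpha-galactosidase A, had the largest called change of all members. It stood at 43.8, 51.5 and 54.6 RPKM in untreated Apoe-/- cells, at 62.4, 66.0 and 61.7 with oxLDL 10 and at 82.4, 96.2 and 85.8 with oxLDL 60. With Treml4 deleted as well it stood at 49.4, 51.8 and 42.8, then at 65.6, 70.4 and 53.2, then at 81.7, 85.7 and 76.6 RPKM. Each step in amount separated the libraries of Apoe-/- cells completely, and the log2 fold change at oxLDL 60 was 0.82 (SE 0.10 and adjusted p = 1.1e-05 in limma) there and 0.76 (SE 0.10 and adjusted p = 2.72e-05 in limma) in DKO. Neu1, the sialidase that removes sialic acid, stood at 25.3, 28.7 and 27.5 RPKM in untreated Apoe-/- cells, at 33.8, 31.0 and 30.1 with oxLDL 10 and at 42.9, 41.8 and 40.4 with oxLDL 60, a change at oxLDL 60 of 0.62 (SE 0.08 and adjusted p = 1.89e-05 in limma). Its DKO values were 29.7, 31.0 and 25.9, then 36.9, 35.1 and 29.9, then 38.7, 38.3 and 36.0 RPKM. The change there, 0.39 (SE 0.08 and adjusted p = 0.00184 in limma), passed the test but not the limit on the fold change. Gaa, which degrades glycogen, and Hexa, a subunit of beta-hexosaminidase, passed the test in both genotypes with smaller changes, at 0.41 and 0.37 in Apoe-/- and 0.25 and 0.27 in DKO on the log2 scale. Without the libraries with Xist, Gaa was called in Apoe-/- at 0.49. Glb1 and Gusb did not pass. Gusb, beta-glucuronidase, stood at 143, 166 and 172 RPKM in untreated Apoe-/- cells, 172, 169.9 and 167 with oxLDL 10 and 179.8, 181 and 184 with oxLDL 60. DKO cultures had 165, 173 and 147, then 174, 176 and 154, then 173, 159 and 148 RPKM. Its libraries separated in Apoe-/- but not in DKO, where the log2 fold change at oxLDL 60 was -0.02.

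Of the 5 genes for sphingolipid and lipoprotein breakdown, Psap was called higher in Apoe-/- cells and none was called in DKO cells. Psap averaged 1308 ± 186 RPKM untreated and 1911 ± 161 with oxLDL 60 in Apoe-/- (SD, n = 3), and its log2 fold change of 0.55 (SE 0.13 and adjusted p = 0.00351 in limma) lost its call without untreated replicate 1. In DKO Psap averaged 1292 ± 144 and 1764 ± 164 RPKM, with a log2 fold change of 0.45 (SE 0.13 and adjusted p = 0.016 in limma) that passed the test but not the limit on the fold change. The DKO change of Psap was called at 0.52 after rescaling and at 0.53 without untreated replicate 2 or without oxLDL 60 replicate 3. Grn (progranulin), Smpd1 (acid sphingomyelinase), Ppt1 (a thioesterase that removes palmitate from proteins) and Asah1 (acid ceramidase) had log2 fold changes between 0.10 and 0.24 in Apoe-/- and between -0.01 and 0.12 in DKO, and none of them passed the test.

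Of the 7 proteases, 1 was called higher in Apoe-/- cells and none in DKO cells, against 7.13% and 4.87% of all genes. Ctsd stood at 1946, 2469 and 2312 RPKM in untreated Apoe-/- cells, at 2533, 2786 and 2313 with oxLDL 10 and at 3088, 3360.4 and 3091 with oxLDL 60. In DKO it stood at 2277, 2647 and 1931, then 2664, 2909.8 and 2179.6, then 2989.8, 2923 and 2564 RPKM. The Apoe-/- groups at oxLDL 60 and untreated did not overlap and the log2 fold change was 0.51 (SE 0.13 and adjusted p = 0.00727 in limma), and this call did not hold without untreated replicate 1, without oxLDL 60 replicate 2 and after rescaling. The DKO groups overlapped, with a change of 0.32 (SE 0.13 and adjusted p = 0.0939 in limma). Ctsb stood at 816, 1065 and 1049 RPKM, then 1027, 1203 and 1023, then 1138, 1286 and 1237 in Apoe-/- cells. Its DKO values were 917, 1024 and 822, then 1031, 1179.8 and 882, then 1186, 1129 and 970.5 RPKM, and it was called in neither genotype (log2 fold changes 0.33 and 0.25). Ctsa, which forms a complex with NEU1 and GLB1 and protects them, and the peptidase Tpp1 passed the test in Apoe-/- at 0.33 and 0.27 but not the limit on the fold change. Ctss, a cysteine protease of antigen processing, and the carboxypeptidase Ctsz had changes of 0.10 and 0.06 in Apoe-/- and of 0.01 and -0.06 in DKO, with libraries that overlapped.

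None of the 3 members grouped as lysosomal membrane proteins, Lamp1, Lamp2 and Mcoln1, was called in either genotype. Of all genes, 7.13% were called higher in Apoe-/- cells and 4.87% in DKO cells. Npc1 and the V0 subunits, which also lie in membranes, are counted under other roles. Lamp1, the main glycoprotein of the limiting membrane, stood at 462, 569 and 586 RPKM in untreated Apoe-/- cells, at 573, 645 and 561 with oxLDL 10 and at 611, 681 and 624 with oxLDL 60. Its DKO levels were 506, 525 and 494, then 550.0, 586 and 529, then 559.7, 557 and 536 RPKM. Its log2 fold change at oxLDL 60 was 0.25 (SE 0.08 and adjusted p = 0.0333 in limma) in Apoe-/- and 0.12 (SE 0.08 and adjusted p = 0.352 in limma) in DKO, so the member with the most E-box matches was among those with smaller changes. Lamp2, its relative with a part in autophagy, stood at 62.5, 74.5 and 77.5 RPKM, then 74.2, 80.3 and 72.9, then 74.2, 79.9 and 74.5 in Apoe-/- cells and at 67.9, 68.6 and 68.3, then 68.1, 76.6 and 65.8, then 69.7, 71.7 and 66.6 in DKO cells. Its libraries overlapped between treatments, with changes of 0.10 and 0.02. Mcoln1, the channel that releases calcium from lysosomes, stood at 11.7, 12.5 and 14.0 RPKM, then 14.7, 13.5 and 13.4, then 17.5, 17.7 and 17.5 in Apoe-/- cells, a log2 fold change at oxLDL 60 of 0.47 (SE 0.08 and adjusted p = 0.00038 in limma). DKO libraries held 14.9, 14.9 and 12.8, then 15.9, 16.4 and 13.9, then 18.1, 18.4 and 16.2 RPKM, a change of 0.30 (SE 0.08 and adjusted p = 0.0116 in limma). Mcoln1 thus passed the test in both genotypes with separated libraries, just short of the limit on the fold change in Apoe-/- cells, where it was called at 0.54 without untreated replicate 3.

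The V-ATPase was represented by 16 genes. All 16 had a positive log2 fold change at oxLDL 60 in Apoe-/- cells and 14 of 16 in DKO cells, against 59.7% and 38.1% of all genes, with medians of 0.42 and 0.24 against 0.06 and -0.06 over all genes. Of them, 4 were called higher in Apoe-/- and 3 in DKO, none was called lower, and 11 and 8 were higher by the adjusted p alone, where the shares of all genes were 7.13% and 4.87% called higher and 18.5% and 9.06% higher by the adjusted p. Atp6v1a, the catalytic subunit of V1, stood at 98.5, 111 and 119 RPKM in untreated Apoe-/- cells, at 125, 128 and 127 with oxLDL 10 and at 176, 182 and 182 with oxLDL 60. The DKO libraries had 112, 112 and 103, then 131, 148 and 116, then 178, 171 and 159.5 RPKM. The log2 fold change was 0.72 (SE 0.08 and adjusted p = 3.05e-06 in limma) and 0.64 (SE 0.08 and adjusted p = 1.37e-05 in limma), and in Apoe-/- cells oxLDL 60 stood 0.50 (SE 0.08 and adjusted p = 0.000388 in limma) above oxLDL 10. Atp6v1c1, a subunit that helps hold V1 on V0, stood at 78.3, 83.8 and 88.1 RPKM, then 107, 101 and 103, then 143, 141 and 139 in Apoe-/- cells. DKO values were 97.5, 98.5 and 79.5, then 115, 132 and 93.3, then 144, 143 and 119.7 RPKM. Its change was 0.76 (SE 0.11 and adjusted p = 4.28e-05 in limma) and 0.56 (SE 0.11 and adjusted p = 0.000801 in limma), and the DKO call was lost without untreated replicate 3. Atp6v1h, another V1 subunit, averaged 51.9 ± 3.45 and 78.3 ± 3.94 RPKM untreated and with oxLDL 60 in Apoe-/- (SD, n = 3) and rose by 0.59 (SE 0.09 and adjusted p = 9.61e-05 in limma), and it rose by 0.47 (SE 0.09 and adjusted p = 0.00103 in limma) in DKO, under the limit on the fold change. The DKO change of Atp6v1h was called at 0.49 to 0.56 after rescaling, without the libraries with Xist, without untreated replicate 2 or without oxLDL 60 replicate 3.

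Atp6v1g1, a stalk subunit, stood at 152, 168 and 172 RPKM, then 201, 189.8 and 180.0, then 230.3, 219.7 and 217 in Apoe-/- cells and at 184, 183 and 159, then 203, 205 and 178, then 218, 223 and 197 in DKO cells. Like Atp6v1d, it passed the test in both genotypes below the limit on the fold change, and Atp6v1d was called in Apoe-/- at 0.52 without untreated replicate 3 and at 0.50 without oxLDL 60 replicate 3. Atp6v1b2 and Atp6v1e1, subunits of the same sector, had log2 fold changes of 0.01 and 0.04 in Apoe-/- and -0.09 and -0.08 in DKO, with SE between 0.07 and 0.08, and neither passed the test. In the membrane sector, Atp6v0a1, an isoform of the subunit that lines the proton path, stood at 14.5, 15.5 and 15.6 RPKM in untreated Apoe-/- cells, at 17.2, 16.3 and 16.7 with oxLDL 10 and at 24.8, 23.2 and 26.3 with oxLDL 60. With Treml4 deleted as well it stood at 14.4, 16.0 and 13.3, then 18.1, 19.0 and 14.8, then 25.7, 23.8 and 21.6 RPKM. The log2 fold change was 0.70 (SE 0.09 and adjusted p = 1.52e-05 in limma) and 0.70 (SE 0.09 and adjusted p = 1.78e-05 in limma), of which 0.56 lay between oxLDL 10 and oxLDL 60 in Apoe-/- cells (SE 0.09, adjusted p = 0.000411 in limma). Atp6v0d1, the common form of the d subunit, stood at 67.7, 79.3 and 80.5 RPKM, then 86.5, 88.1 and 85.2, then 105, 102 and 106 in Apoe-/- cells and at 72.5, 73.7 and 71.3, then 83.3, 87.2 and 77.8, then 92.4, 93.8 and 90.5 in DKO cells. Each amount of oxLDL separated it from untreated cells in both genotypes, with changes at oxLDL 60 of 0.47 (SE 0.06 and adjusted p = 1.7e-05 in limma) and 0.35 (SE 0.06 and adjusted p = 0.000376 in limma), under the limit on the fold change. Without the libraries with Xist, or without untreated replicate 2 or 3, Atp6v0d1 was called in Apoe-/- at 0.50 to 0.52. The proteolipid-ring and small subunits Atp6v0b and Atp6v0e had smaller changes. Atp6v0b stood at 239, 294 and 282 RPKM, then 306, 333 and 295, then 358, 363 and 347 in Apoe-/- cells and at 276, 287 and 274, then 289, 298 and 287, then 322, 320.1 and 316 in DKO cells. Atp6v0e stood at 121, 144 and 145 RPKM, then 153, 169.6 and 155, then 175, 181 and 159 in Apoe-/- cells and at 144, 148 and 138, then 156, 166 and 146, then 160.4, 171 and 158 in DKO cells. The accessory proteins Atp6ap1 and Atp6ap2 had log2 fold changes of 0.16 and 0.28 in Apoe-/-, where Atp6ap2 passed the test, and of 0.02 and 0.16 in DKO.

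The level of Atp6v0d2 differed widely between replicates. Replicate numbers within a genotype are taken here to mark the animal, which the labels do not state. It stood at 3.45, 7.04 and 4.62 RPKM in untreated Apoe-/- replicates 1 to 3, at 4.33, 10.9 and 4.49 with oxLDL 10 and at 6.27, 14.6 and 6.22 with oxLDL 60. DKO cultures had 6.07, 7.10 and 2.13, then 8.35, 9.83 and 2.89, then 10.7, 10.3 and 4.34 RPKM. Apoe-/- replicate 2 was the highest and DKO replicate 3 the lowest of their genotype at every treatment, and these are the replicates with Xist transcripts. In each of the 6 animals oxLDL 60 lay above untreated. The change at oxLDL 60 was 0.77 (SE 0.54 and adjusted p = 0.308 in limma) in Apoe-/- and 0.78 (SE 0.54 and adjusted p = 0.328 in limma) in DKO, as large as that of Npc1 but not called. With the animal as a replicate block the same changes were called, with limma adjusted p = 2.99e-05 and 3.07e-05. Without the libraries with Xist, Atp6v0d2 was called with oxLDL 60 in both genotypes at 0.63 and 0.67 and between both amounts in Apoe-/- at 0.49, and it was called higher in DKO than in Apoe-/- at all 3 treatments, at 0.70 untreated, 1.02 with oxLDL 10 and 0.74 with oxLDL 60 (limma adjusted p = 0.00893, 0.00145 and 0.0164, from 2 libraries a group). With all libraries these differences were -0.09, 0.06 and -0.08 (SE 0.54 each), so the comparison of genotypes for this gene turned on 1 animal of each genotype. Osteoclast markers, among which this gene is often counted, summed to between 9.09 and 16 RPKM over all libraries. Of 6 tested, Ctsk was called higher with oxLDL 60 in both genotypes, and 2 were called lower in Apoe-/- and 1 in DKO cells. Of all genes, 7.13% and 4.87% were called higher in Apoe-/- and DKO cells, and 6.78% and 7.31% lower. The part of these markers in the differences of Atp6v0d2 was not tested.

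**Figure D4:**
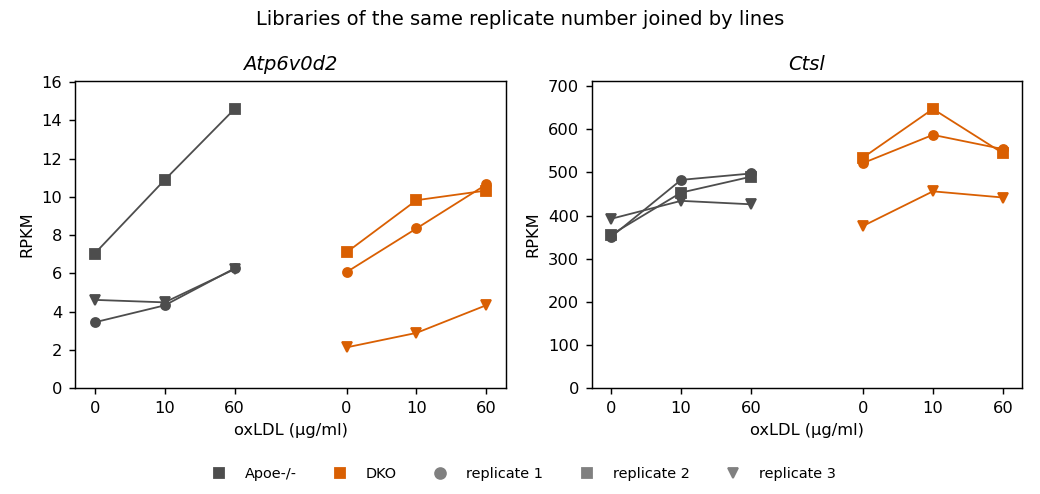
RPKM of Atp6v0d2 (left) and Ctsl (right) against the amount of oxLDL (0 is untreated), with libraries of the same genotype and replicate number joined (grey, Apoe-/-; orange, DKO). For Atp6v0d2, Apoe-/- replicate 2 runs from 7.04 to 14.6 RPKM and DKO replicate 3 from 2.13 to 4.34, apart from the other animals of their genotype, and for Ctsl DKO replicate 3 lies below the other DKO animals.

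None of the 3 transcription factors was called higher with oxLDL 60, against 7.13% of all genes in Apoe-/- cells and 4.87% in DKO cells. Mitf stood at 19.1, 26.3 and 24.4 RPKM in untreated Apoe-/- cells, at 16.5, 22.0 and 16.0 with oxLDL 10 and at 13.2, 15.7 and 15.0 with oxLDL 60. In DKO it stood at 20.9, 19.9 and 24.8, then 16.4, 16.7 and 19.4, then 14.4, 13.8 and 15.4 RPKM. Every oxLDL 60 library lay below every untreated one, and Mitf was called lower in both genotypes, with a log2 fold change of -0.66 (SE 0.13 and adjusted p = 0.000908 in limma) in Apoe-/- and -0.58 (SE 0.13 and adjusted p = 0.00285 in limma) in DKO. Tfe3 stood at 21.3, 25.8 and 25.2 RPKM, then 23.2, 23.6 and 20.5, then 19.6, 20.6 and 20.8 in Apoe-/- cells and at 23.5, 23.6 and 24.9, then 21.8, 21.9 and 22.8, then 20.6, 19.1 and 19.8 in DKO cells. It fell as well, with log2 fold changes of -0.24 (SE 0.07 and adjusted p = 0.0159 in limma) and -0.27 (SE 0.07 and adjusted p = 0.00868 in limma), under the limit on the fold change. Tfeb stood at 8.18, 10.9 and 8.45 RPKM, then 10.1, 11.1 and 9.66, then 8.91, 10.1 and 9.46 in Apoe-/- cells and at 9.58, 8.15 and 10.8, then 10.1, 9.42 and 11.2, then 9.75, 9.53 and 10.1 in DKO cells. Its libraries overlapped between all treatments, with changes at oxLDL 60 of 0.06 (SE 0.11 and adjusted p = 0.736 in limma) and 0.05 (SE 0.11 and adjusted p = 0.786 in limma).

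Changes with oxLDL 10 were smaller. In Apoe-/- cells no member was called, against 2.79% of all genes, 40 of 43 had a positive log2 fold change against 66.6% of all genes, and 14 had an unadjusted p under 0.05 against 22.4% of all genes. In DKO cells no member was called, against 2.26% of all genes, 37 of 43 were positive against 57.6% of all genes, and 9 had an unadjusted p under 0.05 against 13.2% of all genes. Single libraries decided some calls at oxLDL 10. Mitf was called lower in Apoe-/- cells without untreated replicate 1 or without oxLDL 10 replicate 2 (-0.50 in each), and Gla and Npc1 were called higher in DKO cells without oxLDL 10 replicate 3 (0.51 and 0.50). The medians were 0.15 and 0.12, against 0.07 and 0.02 over all genes. By the adjusted p alone Lipa passed in both genotypes and Gla in DKO cells (log2 fold change 0.39 (SE 0.10 and adjusted p = 0.0439 in limma)), where 3.92% of all genes passed in the higher direction in Apoe-/- cells and 1.57% in DKO cells. Between oxLDL 10 and oxLDL 60, 3 members, Npc1, Atp6v1a and Atp6v0a1, were called higher in Apoe-/- cells, against 2.91% of all genes, and none in DKO cells, against 5.66% called in either direction there. Gla joined them in Apoe-/- cells without oxLDL 10 replicate 2 or without oxLDL 60 replicate 1 or 3 (0.49 to 0.52), and Atp6v0a1 was called in DKO cells after rescaling (0.54) or without oxLDL 10 replicate 1 or 2 or oxLDL 60 replicate 3 (0.49 to 0.52). Group means rose from untreated over oxLDL 10 to oxLDL 60 for 35 of 43 members in Apoe-/- cells and 25 in DKO cells, against 35.4% and 20.9% of all genes tested. The untreated libraries serve in both comparisons of an amount of oxLDL, so these counts share their controls.

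Libraries of a genotype with the same number deviated together and were taken as 1 animal, although some with different numbers did so as well. By this reading, 31 of 43 members were higher with oxLDL 60 in each of the 3 Apoe-/- animals. In each of them 2 were lower, and the shares of all genes were 34.8% and 22.8%. In DKO animals 27 members were higher in each and 4 were lower in each, against 22.8% and 41.8% of all genes. The median change of the members within an animal was 0.47, 0.26 and 0.22 in Apoe-/- replicates 1 to 3, against 0.17, 0.03 and -0.02 over all genes, and the first of these rests on the untreated library that was lowest for every member. In DKO replicates 1 to 3 it was 0.23, 0.14 and 0.18, against -0.06, -0.05 and -0.08 over all genes. The median of the members stood above the median of all genes in each of the 6 animals. Of the 8 macrophage markers, 4 were called lower and 1 higher with oxLDL 60 in Apoe-/- cells and 3 lower and 1 higher in DKO cells, with a median of -0.42 in both. Cd14 fell by 1.61 in Apoe-/- and 1.81 in DKO and Lyz2 by 0.61 and 0.71 on the log2 scale, while Mertk rose by 0.68 and 0.70. In bulk RNA fewer cells of a type and less RNA per cell cannot be told apart, and the part of these markers in the members' changes was not tested.

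Whether loss of Treml4 alters the lysosomal genes was asked by comparing DKO with Apoe-/- cells at each treatment. No member was called untreated, with oxLDL 10 or with oxLDL 60, where 0.210%, 0.0857% and 0.125% of all genes were called, and 1, 0 and 10 members had an unadjusted p under 0.05, against 17.3%, 9.75% and 7.88% of all genes. With RPKM as deposited, 22, 24 and 40 of 43 members were lower in DKO cells untreated, with oxLDL 10 and with oxLDL 60, against 25.4%, 33.8% and 58.2% of all genes. Their median log2 differences were 0.00, -0.01 and -0.12, against 0.09, 0.05 and -0.02 over all genes. With oxLDL 60 the libraries of 18 members did not overlap, all 18 lower in DKO, against 12.0% of all genes. No member was separated untreated or with oxLDL 10, and the shares of all genes as deposited at these treatments are not given here. After rescaling by the median ratio 39, 37 and 37 members were lower in DKO, and their medians became -0.10, -0.07 and -0.09. The members separated and lower in DKO were then 8, 4 and 13, against 7.88%, 6.57% and 7.16% of all genes. Neutrophil markers had medians of 0.42, 0.40 and 0.01 between genotypes and those of stroma and fibroblasts -0.57, -0.60 and -0.62, with none called, and their part in the members' differences was not tested. With oxLDL 60 the smallest p belonged to Lamp1 (-0.21 (SE 0.08 and adjusted p = 0.578 in limma)), Atp6v0d1 (-0.18 (SE 0.06 and adjusted p = 0.503 in limma)) and Asah1 (-0.17 (SE 0.07 and adjusted p = 0.587 in limma)). Asah1 stood at 139, 148 and 136 RPKM in Apoe-/- and 125, 126 and 123 in DKO cells with oxLDL 60, at 136, 142 and 135 and 126, 144 and 126 with oxLDL 10, and at 118, 130.0 and 146 and 127, 123 and 126 untreated. With oxLDL 60 its libraries did not overlap between genotypes, while they did untreated and with oxLDL 10.

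In untreated cells the smallest p among the members belonged to Ctsl, a cysteine protease. It stood at 350.5, 356 and 392 RPKM in untreated Apoe-/- cells, at 483, 453 and 434 with oxLDL 10 and at 497, 489.9 and 426 with oxLDL 60. Its DKO levels were 521, 534 and 376, then 587, 647 and 456, then 554, 544 and 442 RPKM. DKO replicates 1 and 2 lay above all Apoe-/- libraries at every treatment and DKO replicate 3 within their range, and the difference was 0.37 (SE 0.14 and adjusted p = 0.203 in limma) untreated, 0.29 with oxLDL 10 and 0.12 with oxLDL 60. Without the libraries with Xist it was called when untreated, at 0.51 (limma adjusted p = 0.0157). Mcoln1 and Atp6v1g1 came next, with differences of 0.16 (SE 0.08) and 0.10 (SE 0.08) in untreated cells, and the sign of the latter turned with rescaling. With oxLDL 10 the smallest p belonged to Ctsl, Mcoln1 and Npc1 (0.21 (SE 0.13)).

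The response itself was compared between genotypes by the interaction of genotype and oxLDL, which called no member at either amount, while it called 0 genes of all at oxLDL 10 and 0.0156% of all at oxLDL 60. No member reached an unadjusted p of 0.05 at either amount, against 1.92% and 9.78% of all genes. At oxLDL 60, 41 of 43 interactions were negative, which is a lower estimate in DKO cells, and so were 78.1% of all genes, and the median of the members was -0.12 against -0.11 over all genes. Rescaling shifted the median of all genes by 0.12, and the members then split into 24 positive and 19 negative with a median of 0.00. The members with the smallest p were Neu1 (-0.23 (SE 0.12 and adjusted p = 0.514 in limma)), Atp6v0b (-0.20 (SE 0.10)) and Gusb (-0.20 (SE 0.11)), and at oxLDL 10 Atp6v0b (-0.14 (SE 0.10)), Atp6v0e (-0.10 (SE 0.11)) and Atp6v0a1 (0.11 (SE 0.13)). With the animal as a replicate block the limma adjusted p at oxLDL 60 was 0.249 for Neu1, 0.276 for Atp6v0b and 0.273 for Gusb, and no member was called at either amount.

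**Figure D5:**
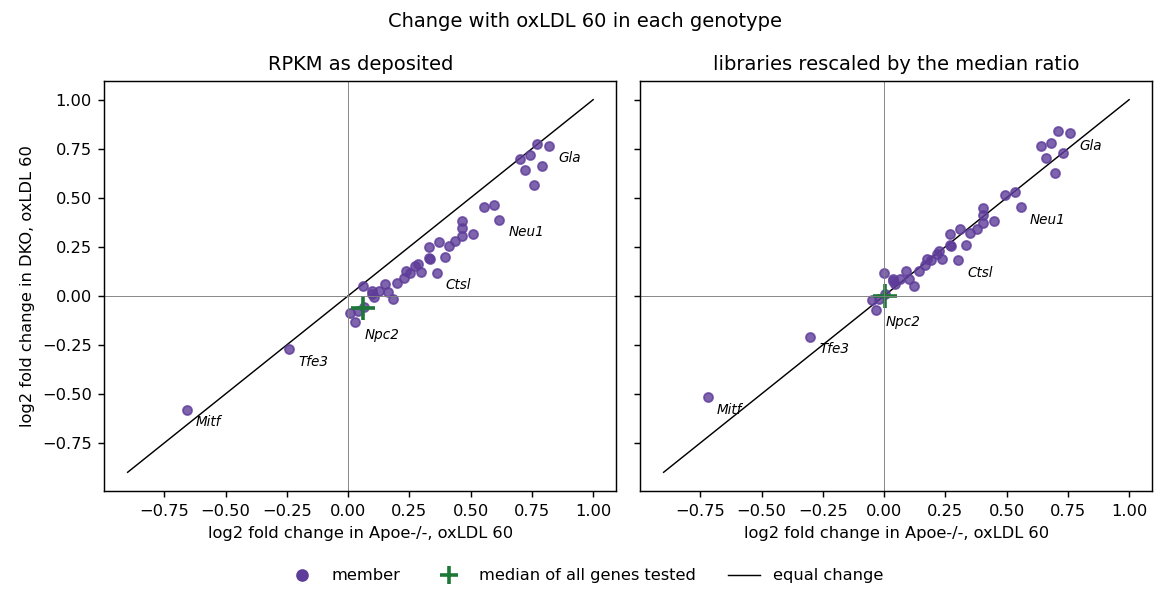
Log2 fold change with oxLDL 60 in DKO cells (vertical) against that in Apoe-/- cells (horizontal) for the 43 members, from RPKM as deposited (left) and after rescaling libraries by the median ratio (right); the diagonal marks equal change and the plus the median of all genes tested. On the left 41 members lie below the diagonal, as does the median of all genes, and on the right 19 do.

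The promoter letters were then set beside these changes. The 11 members with TCACGTG had a median log2 fold change at oxLDL 60 of 0.41 in Apoe-/- and 0.25 in DKO, and the 24 with a window but without the letters 0.19 and 0.06. These 24 include the factors themselves, Tfeb, Tfe3 and Mitf, at 0.06, -0.24 and -0.66 in Apoe-/-. Members without a window stand in neither group. Their changes in Apoe-/- ran from 0.01 for Atp6v1b2 to 0.77 for Atp6v0d2, and Npc1, Atp6v1c1 and Atp6v1h among them were called higher there. Over all genes tested the medians were 0.13 and -0.01 for the 711 with the letters and 0.06 and -0.07 for the 9442 without. Of the 11 members with the letters, 3 were called higher in Apoe-/- (Gla, Atp6v1a and Ctsd) and 2 in DKO, and of the 24 without, 4 and 2. Of all tested genes 9.7% and 7.31% were called higher with the letters and 6.89% and 4.61% without, in Apoe-/- and DKO. These are descriptions over genes, which are not independent, and the differences were not tested.

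Genes of the pathway outside the members were followed in further lists, of which 93 genes could be tested. With oxLDL 60, 22 of these were called higher and 3 lower in Apoe-/- cells and 14 higher and 3 lower in DKO cells, where 7.13% and 6.78% of all genes were called higher and lower in Apoe-/- and 4.87% and 7.31% in DKO. Their medians were 0.25 and 0.12, against 0.06 and -0.06 over all genes. A list of 16 genes stood for the signalling platform that senses nutrients at the lysosome, and it also held the transcription factor Tfec. Of these 16, 6 and 3 were called higher in Apoe-/- and DKO and none lower. Rragd, a small GTPase of that platform, rose by 1.56 and 1.60 in Apoe-/- and DKO, and Fnip2 and Flcn, which form a complex that acts on it, rose by 0.86 and 0.91 and by 0.82 and 0.80. Of 16 other lysosomal membrane proteins 7 and 5 were called higher and none lower, among them the metal transporter Slc11a1 (0.89 and 0.76), the cystine exporter Ctns (0.79 and 0.66) and Scarb2, the receptor that sorts glucocerebrosidase (0.68 and 0.49). Of 30 other hydrolases 5 and 4 were called higher, among them Ctsk (1.09 and 0.91), a collagen-degrading cathepsin, and Sgsh (0.96 and 0.80), an enzyme of heparan sulfate breakdown. Ctsc, the cathepsin that activates serine proteases of granules, fell by 0.94 and 1.04, and the acid phosphatase Acp2 fell by 0.67 and 0.60. Among 15 autophagy genes 4 and 2 were higher, with the cargo receptor Sqstm1 at 1.03 and 0.97 and Gabarapl1 at 0.78 and 0.61, and 1 was lower in DKO. None of 6 genes for the sorting of hydrolases and none of 2 cathepsin inhibitors was called, and of 8 other V-ATPase subunits and assembly factors tested none was called higher and Dmxl2 was lower in Apoe-/- cells.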

How the data were processed

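RNA of 18 BMDM cultures was sequenced, and the study's methods describe stranded libraries with poly(A) selection. The authors deposited RPKM (reads per kilobase of transcript and per M mapped reads) of 18668 gene symbols in a single table. Per the submitters' processing notes the reads were aligned with STAR to mm10. The study's methods name RnaSeqC and Subread among the tools of their workflow. Which tool and which annotation gave the deposited values is not stated in the sources used here. The table held 24 symbols turned into dates by spreadsheet software, and none of them is a member. RPKM are not counts, so values were analysed as log2(RPKM + 0.1), which understates changes of low genes.

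Genes that reached 0.1 RPKM in 3 or more libraries, 12838 in all, were fitted in limma 3.58.1 (R 4.3.3; lmFit, contrasts.fit, eBayes with a trend) over all 18 libraries with 6 group means, and Benjamini-Hochberg adjustment ran over all of them. A gene was called at an adjusted p under 0.05 and a fold change of at least 1.4. The script was tested on simulated data before use. An exact permutation test of 3 libraries against 3 cannot go below p = 0.1. Depth was recovered from whole steps in low RPKM values with GENCODE M21 transcript lengths. Between 52.7% and 59.0% of these values were whole within 0.05 of a read, against 5.14% at other depths. The precision of these abundant genes rests on 3 replicates a group.

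Pairing by replicate number was checked by correlating deviations from group means across genes. Within a genotype the same number gave a correlation of 0.183 to 0.695 in all 18 pairs, with a median of 0.405. Different numbers gave -0.613 to 0.292, with a median of -0.347, so the ranges overlapped. Numbers were taken to mark the animal there, but these correlations do not tell every animal apart. The counts by animal and the replicate block rest on this reading. Between genotypes the median was -0.168, and no pairing was used. The members and all lists were chosen with earlier results of these data known. Values by library were given for members fixed for their role, for the 8 with the largest mean change at oxLDL 60 over both genotypes, and for the 3 with the smallest p in each comparison of genotypes and interaction. Genes outside the members were named where called in both genotypes, at most 4 a list, and Dmxl2, Cd14, Lyz2 and Mertk were added after their values were seen. Another gene that meets this rule is not reported here. Promoter windows came from RefSeq, and matches were counted on both strands. Alternatives were other pseudocounts and filters, libraries rescaled by the median ratio, only the groups compared, no limit on the fold change, eBayes without a trend, the animal as a replicate block, a term for or removal of libraries with Xist, and leaving out each library. Depth, promoters and plots were computed with matplotlib 3.10.9, pandas 2.3.3 and numpy 2.4.6 under Python 3.11.15.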

Additional observations from a re-analysis of the deposited data

How the results depend on the processing

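Pseudocounts of 0.01 and 1, both other filters, the fit of only the groups compared, eBayes without a trend and the term for Xist left every count of called members as it was. Without the limit on the fold change the counts were 1 for oxLDL 10 in Apoe-/-, 25 for oxLDL 60 in Apoe-/-, 12 between both amounts there, 2 for oxLDL 10 in DKO, 18 for oxLDL 60 in DKO and 5 between both amounts there. Rescaling by the median ratio gave 10 and 9 called members with oxLDL 60 in Apoe-/- and DKO, and 1 between both amounts in DKO. Without the libraries with Xist, 14 and 9 members were called with oxLDL 60 in Apoe-/- and DKO, and 2 members were called between genotypes untreated, 1 with oxLDL 10 and 1 with oxLDL 60. With CACGTG asked for within the 100 bases before the start, 6 members held it instead of 12. Leaving out each library gave 9 to 14 called members for oxLDL 60 in Apoe-/-, with the lowest without untreated replicate 1, and 6 to 9 in DKO, 0 to 1 and 0 to 2 for oxLDL 10 in Apoe-/- and DKO, 3 to 4 and 0 to 1 between both amounts, and 0 to 0 for every comparison of genotypes and interaction. With the animal as a replicate block, 12 and 8 members were called with oxLDL 60 in Apoe-/- and DKO, the pairing adding Atp6v0d2 to each, and it changed no other call. The shares of all genes called under rescaling, without libraries and with the block are not given here. The counts under these settings are therefore not set against a background. Some small changes turned sign. At oxLDL 60 in Apoe-/- the log2 fold change of Npc2 was -0.0314 when rescaled and -0.0902 to 0.0912 without single libraries, and that of Tfeb was -0.0012 and -0.0177 to 0.189. In DKO it was 0.0477 and -0.0829 to 0.0389 for Gusb, and 0.0581 and -0.0202 to 0.0036 for Asah1, with 0.0081 without Xist. Without single libraries it was -0.0022 to 0.051 for Lamp2, -0.0473 to 0.221 for Ctsl and -0.0529 to 0.146 for Tfeb in DKO. The difference of Atp6v1g1 between untreated genotypes became -0.0055 when rescaled. The causes were not tested.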
